A study of Mus musculus with 12 samples.

Results

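The cohesin genes described here are 10 genes that encode subunits of the cohesin complex or its loader. They were found by their Ensembl identifiers, each of which also had to lie on its known chromosome. All 10 were present among the 55416 annotated genes, and 0 were dropped. Of the 10, 4 encode forms used in meiosis (Rec8, Rad21l, Smc1b and Stag3) and 4 encode the corresponding mitotic forms (Rad21, Smc1a, Stag1 and Stag2). Smc3 is shared by meiotic and mitotic complexes, and Nipbl encodes the loader.

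Cohesin is a ring built from a pair of SMC proteins, a kleisin that closes them, and a STAG protein bound to the kleisin. It holds sister chromatids together after replication and extrudes chromatin loops. In germ cells that enter meiosis, other subunits take over, at least in part. REC8 and RAD21L serve in place of the kleisin RAD21, SMC1B in place of SMC1A, and STAG3 in place of STAG1 and STAG2. These complexes form the chromosome axes on which homologues pair, and the cohesin loaded in fetal oocytes is known to hold their chromosomes together until ovulation. At the embryonic stage studied here, the mouse ovary holds oocytes in meiotic prophase beside somatic cells.

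RNA was measured in whole ovaries of E16.5 mouse embryos, in 12 libraries, each from a pool of 5 pairs of ovaries. The groups were Fmr1 knockout (KO) input, wild-type (WT) input, KO RNA immunoprecipitation (RIP) and WT RIP, with 3 libraries each. Input is total RNA of the homogenate. RIP is the RNA pulled down by an antibody to FMRP, the protein product of Fmr1, which binds messenger RNAs. The strain label of every sample, WT included, is B6.129P2-Fmr1tm1Cgr/J, which names a germ-line Fmr1 allele, and the labels give no zygosity. Each library counts as a biological replicate in the labels, so p-values measure the spread between pools. In such bulk samples, fewer cells of a type and less RNA per cell cannot be told apart, which touches every level of the germ-cell forms below.

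The input libraries held 18880238 to 25707718 counted reads. Fmr1, the targeted gene, stood at 85.6, 123 and 93.4 CPM (read counts scaled to a common library size) in KO input and at 204, 213 and 221 CPM in WT input. It fell in KO (log2 change -1.08, SE 0.11, Benjamini-Hochberg adjusted p = 0.00775, quasi-likelihood fit of edgeR). FMRP protein was not measured in these files. Over all 23698 tested input genes, 10 passed at an adjusted p of 0.05, or 0.0422%.

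All 10 cohesin genes were transcribed in the E16.5 ovary, and their levels per length ran from the 74.7th to the 96.6th percentile of tested genes. Levels per length are given as CPM per kilobase of annotated exon (RPKM), the only scale on which different genes are set against each other here. In KO input the order from high to low was Smc1b, Rad21, Nipbl, Smc3, Stag2, Stag3, Smc1a, Stag1, Rec8 and Rad21l. In WT input Rad21 stood above Smc1b and Stag2 above Nipbl and Smc3, and the order was otherwise the same. Among neighbours in the KO order, the ranges of the 3 libraries overlapped for Smc3 with Stag2, Stag2 with Stag3, and Stag3 with Smc1a. In the WT order they overlapped for Rad21 with Smc1b, Stag2 with Nipbl, Nipbl with Smc3, Stag3 with Smc1a, and Stag1 with Rec8. Within single libraries, Stag2 still stood above Stag3 in 3 of 3 KO libraries and Nipbl above Smc3 in 3 of 3 WT libraries. The other overlapping neighbours kept their order in 2 of 3 libraries.

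**Figure D1:**
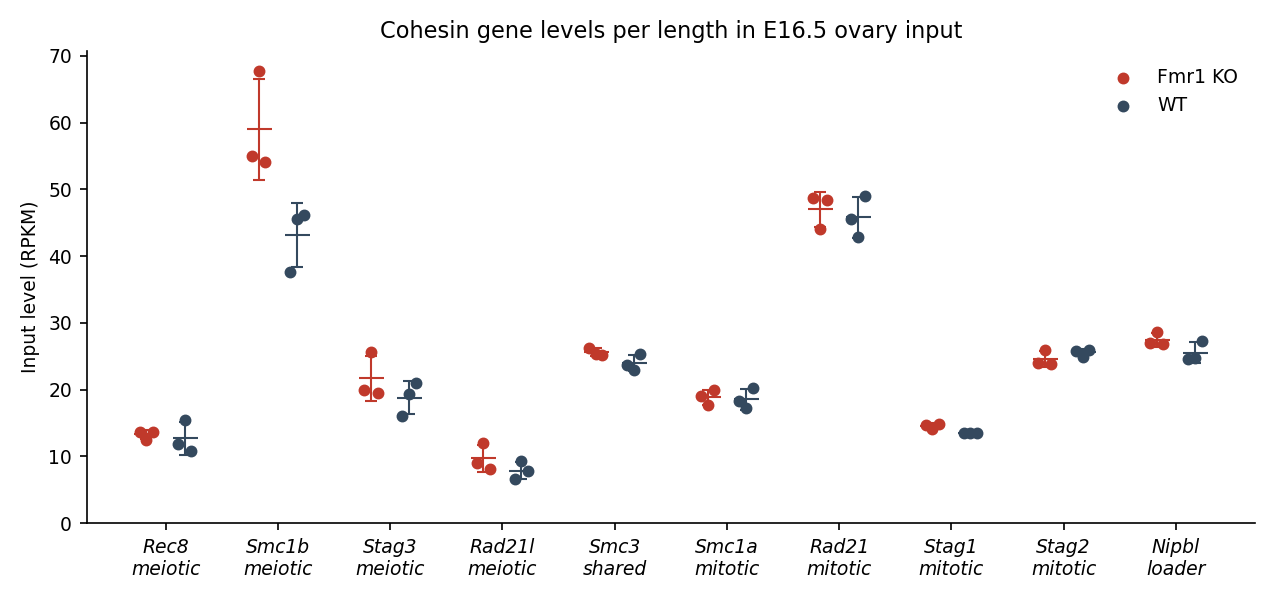
Input level (RPKM, vertical axis) of the 10 cohesin genes in each of the 3 Fmr1 KO and 3 WT input libraries (points), with the mean and SD. Smc1b is the gene whose KO points, from 54.2 to 67.7 RPKM, lie farthest above its WT points, from 37.6 to 46.2 RPKM, while Rad21l is the lowest in both genotypes.

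Rad21 was the predominant kleisin transcript in the whole ovary. Rad21 (ENSMUSG00000022314, chromosome 15, 51825636 to 51855143, minus strand, exonic length 4232 bp), the mitotic kleisin, stood at 47.0 ± 2.60 RPKM in KO input and 45.8 ± 3.06 RPKM in WT input (SD over n = 3 libraries of each). Rec8 (ENSMUSG00000002324, chromosome 14, 55855494 to 55862852, plus strand, 2935 bp), the kleisin that keeps sister centromeres joined through the first meiotic division, stood at 13.3 ± 0.70 RPKM in KO and 12.7 ± 2.47 RPKM in WT. Rad21l (ENSMUSG00000074704, chromosome 2, 151487324 to 151510453, minus strand, 1659 bp), the kleisin of early prophase axes, stood at 9.72 ± 2.04 RPKM in KO and 7.89 ± 1.31 RPKM in WT. Of the summed level of the 3 kleisins, Rad21 made up 67.1% ± 2.52 in KO and 69.0% ± 4.92 in WT, Rec8 18.97% ± 0.68 in KO and 19.1% ± 3.52 in WT, and Rad21l 13.9% ± 3.18 in KO and 11.9% ± 1.68 in WT.

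The SMC1 pair ran the other way, with the meiotic form above the mitotic one in all 6 input libraries. Smc1b (ENSMUSG00000022432, chromosome 15, 84948890 to 85016165, minus strand, 4047 bp), the meiotic SMC1 that maintains cohesion and axis length in oocytes, stood at 59.0 ± 7.58 RPKM in KO and 43.1 ± 4.80 RPKM in WT. Smc1a (ENSMUSG00000041133, X chromosome, 150799424 to 150845690, plus strand, 5769 bp), the SMC1 of somatic cohesin, stood at 18.9 ± 1.14 RPKM in KO and 18.6 ± 1.55 RPKM in WT. Smc1b made up 75.6% ± 3.28 of the summed SMC1 level in KO and 69.8% ± 2.67 in WT. Smc3 (ENSMUSG00000024974, chromosome 19, 53588829 to 53634264, plus strand, 5541 bp), the partner of both, stood at 25.6 ± 0.61 RPKM in KO and 24.0 ± 1.23 RPKM in WT, so that the summed SMC1 transcripts lay above those of Smc3.

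The STAG subunits lay closer together. Stag3 (ENSMUSG00000036928, chromosome 5, 138278502 to 138310655, plus strand, 5733 bp), the STAG protein of meiotic complexes, stood at 21.7 ± 3.39 RPKM in KO and 18.8 ± 2.49 RPKM in WT. Stag2 (ENSMUSG00000025862, X chromosome, 41238194 to 41366062, plus strand, 8273 bp), a STAG protein of mitotic complexes, stood at 24.6 ± 1.16 RPKM in KO and 25.6 ± 0.58 RPKM in WT. Stag1 (ENSMUSG00000037286, chromosome 9, 100479851 to 100841428, plus strand, 11781 bp), the STAG form known for telomere cohesion, stood at 14.5 ± 0.43 RPKM in KO and 13.5 ± 0.061 RPKM in WT. Nipbl (ENSMUSG00000022141, chromosome 15, 8320101 to 8473947, minus strand, 9423 bp), which loads cohesin onto DNA, stood at 27.5 ± 1.05 RPKM in KO and 25.6 ± 1.55 RPKM in WT. Exons of another annotated gene overlapped 28 bp of Stag2, or 0.338% of its exonic length, and 0 bp of the other 9 genes.

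The levels of the 4 meiotic forms summed to 97.6, 118 and 95.6 RPKM in KO input and to 72.2, 89.7 and 85.7 RPKM in WT input. All KO sums lay above all WT sums, at 103.7 ± 12.3 RPKM in KO and 82.5 ± 9.15 RPKM in WT, and no test was run on them. Smc1b made up the largest part of the sums and of their difference, at 59.0 RPKM in KO and 43.1 RPKM in WT. Stag3, Rad21l and Rec8 each overlapped between the genotypes, with the KO mean above the WT mean in each. Whether the meiotic forms rose together was not tested. The mitotic forms summed to 105 ± 2.92 RPKM in KO and 103 ± 5.19 RPKM in WT. The meiotic sum was below the mitotic one in all 3 WT libraries and in KO replicates 1 and 3, and above it in KO replicate 2. In KO the meiotic forms took 47.9%, 53.7% and 47.2% of the 2 sums together in replicates 1, 2 and 3, and in WT they took 41.2%, 47.7% and 44.0%. The ranges of this share overlapped, since KO replicate 3 lay below WT replicate 2. The mean share was 49.6% ± 3.58 in KO and 44.3% ± 3.25 in WT (SD over n = 3 libraries), a difference of 5.28 percentage points. It was 3.22 points without KO replicate 2 and 3.72 points without WT replicate 1.

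The promoters of the meiotic forms are shown with that of Smc1a, the mitotic partner of the meiotic gene with the highest level. In mouse somatic cells, E2F6 is known to keep Smc1b and Stag3 silent, so the windows were searched on both strands for TCCCGC, the core of E2F sites. Each sequence comes from the RefSeq promoter table of GRCm38.p6 and runs 5′ to 3′ over 300 bases, 250 before and 50 after the annotated start, with matches in capitals.
Rec8 (chr14:55617916-55618215, plus strand): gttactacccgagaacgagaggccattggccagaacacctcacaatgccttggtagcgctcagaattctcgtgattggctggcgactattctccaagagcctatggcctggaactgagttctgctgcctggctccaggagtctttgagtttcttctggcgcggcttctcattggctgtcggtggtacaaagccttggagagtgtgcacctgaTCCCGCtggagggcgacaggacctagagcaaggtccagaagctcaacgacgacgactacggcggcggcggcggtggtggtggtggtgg
Rad21l (chr2:151668484-151668783, minus strand): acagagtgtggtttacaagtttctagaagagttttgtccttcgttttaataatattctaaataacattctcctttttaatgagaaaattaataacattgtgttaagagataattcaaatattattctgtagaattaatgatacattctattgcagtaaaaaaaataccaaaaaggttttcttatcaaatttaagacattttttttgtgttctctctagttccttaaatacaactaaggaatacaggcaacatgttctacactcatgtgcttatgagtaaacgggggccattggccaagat
Smc1b (chr15:85131908-85132207, minus strand): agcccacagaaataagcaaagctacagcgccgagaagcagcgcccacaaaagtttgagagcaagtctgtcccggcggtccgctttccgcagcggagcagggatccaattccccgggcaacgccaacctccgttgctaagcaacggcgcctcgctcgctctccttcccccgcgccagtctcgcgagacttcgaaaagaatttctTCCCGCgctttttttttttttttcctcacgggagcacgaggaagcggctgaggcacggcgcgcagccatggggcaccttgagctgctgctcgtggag
Stag3 (chr5:138280259-138280558, plus strand): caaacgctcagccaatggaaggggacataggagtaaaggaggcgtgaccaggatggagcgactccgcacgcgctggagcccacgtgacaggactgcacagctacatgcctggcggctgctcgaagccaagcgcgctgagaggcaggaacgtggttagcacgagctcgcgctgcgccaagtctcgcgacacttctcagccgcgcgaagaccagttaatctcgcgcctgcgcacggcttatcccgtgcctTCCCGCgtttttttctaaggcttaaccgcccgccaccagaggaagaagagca
Smc1a (chrX:152016178-152016477, plus strand): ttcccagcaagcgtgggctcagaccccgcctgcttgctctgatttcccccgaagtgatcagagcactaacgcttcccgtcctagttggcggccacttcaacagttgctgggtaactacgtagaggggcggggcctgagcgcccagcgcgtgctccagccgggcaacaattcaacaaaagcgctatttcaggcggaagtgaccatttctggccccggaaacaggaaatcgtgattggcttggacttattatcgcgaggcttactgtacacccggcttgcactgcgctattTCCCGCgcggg
Rec8, Smc1b and Stag3 each held 1 match, starting at bases 213, 204 and 249 of the printed run, and Rad21l held 0. Smc1a held 1, at base 290, Stag1 held 1 and Smc3 held 2. Of all 32851 promoter windows in the table, 19.98% held the core. The core is itself rich in G and C, and this share is not matched for composition. The Rad21l window stood apart in composition, at 29.0% G and C with 2 CpG dinucleotides, against 58.3% to 61.3% with 18 to 30 in Rec8, Smc1b and Stag3. The median of all windows was 52.7% with 7. The E-box CACGTG, which overlaps no E2F core by its letters, was found in Stag3 alone of the 7 cohesin windows and in 7.15% of all windows. CNCCTCAG, known as a motif of the meiotic regulator STRA8, was found in 0 of the 7 and in 7.94% of all. Rad21, Stag2 and Nipbl had no entry in the table. Genome positions in this paragraph belong to GRCm38.p6 and those of the genes above to the annotation of the count files, and the 2 sets cannot be compared base for base. A match is a run of letters, and these libraries do not measure binding there.

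The comparison of genotypes asked whether cohesin transcripts differed between Fmr1 KO and WT ovaries. Of the 10 cohesin genes, 0 passed (edgeR, Benjamini-Hochberg adjusted p of 0.05), against 0.0422% of all tested genes, so the count of 0 is near the background. At an unadjusted p under 0.05 there was 1, Smc1b, higher in KO, where 2.90% of all tested genes were called in that direction. The estimate was above 0 for 9 of the 10 genes, against 49.5% of all tested genes, with a median log2 change of 0.097 against -0.0020 over all. It was above 0 for all 4 meiotic forms (median 0.26) and for 3 of the 4 mitotic forms (median 0.030). These genes share libraries, so their directions are not separate observations.

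Smc1b had the largest estimate of the 10. It stood at 223, 274 and 219 CPM in KO input and at 152, 185 and 187 CPM in WT input. All KO libraries lay above all WT libraries, with KO replicate 2 the highest and WT replicate 1 the lowest. The fold was 1.37 (log2 change 0.45, SE 0.094, unadjusted p = 0.000305, adjusted p = 0.190, edgeR), which ranked 38th by p among the 23698 tested genes and 17th among those higher in KO. The call depended on the settings. It passed with DESeq2 (adjusted p = 0.00480, 0.171% of all tested genes called), with no low-count filter (adjusted p = 5.45e-07, edgeR, 0.228% called) and with replicate number as a block (adjusted p = 0.0385, edgeR, 0.0844% called). It did not with limma-voom (adjusted p = 0.370). The log2 change ran from 0.34 without KO replicate 2 to 0.51 without KO replicate 3, and the adjusted p stayed between 0.148 and 0.311 when any 1 library was left out.

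Stag3, Rad21l and Rec8 overlapped between the genotypes. Stag3 stood at 115, 147 and 112 CPM in KO and at 92.2, 111 and 120 CPM in WT, where WT replicate 3 lay above KO replicates 1 and 3 (log2 change 0.21, SE 0.12, adjusted p = 0.916, edgeR). Rad21l stood at 14.8, 19.96 and 13.6 CPM in KO and at 11.0, 15.4 and 12.9 CPM in WT, where WT replicate 2 lay above the same KO libraries (log2 change 0.31, SE 0.16, adjusted p = 0.870, edgeR). For Smc1b, Stag3 and Rad21l, KO replicate 2 was the highest of the 6 libraries and WT replicate 1 the lowest, while the order of the others differed between the 3 genes. Without KO replicate 2 the log2 changes of Stag3 and Rad21l were 0.072 and 0.12. Rec8 stood at 40.1, 36.6 and 40.3 CPM in KO and at 34.8, 45.4 and 31.5 CPM in WT, so that the WT libraries held both its highest and its lowest value (log2 change 0.065, SE 0.11, adjusted p = 0.981, edgeR). Its KO replicate 2 was the lowest of the KO libraries, where the other meiotic forms had their highest.

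The mitotic forms, Smc3 and Nipbl differed by at most 1.08-fold between the genotypes. Stag1 stood at 174, 165 and 175 CPM in KO and at 159, 159 and 160 CPM in WT. Its groups did not overlap, as was also seen for Smc1b, so that 2 of the 10 had KO wholly above WT, against 5.22% of all tested genes, and 0 had KO wholly below, against 5.69%. The Stag1 fold was 1.08 (log2 change 0.11, SE 0.061, adjusted p = 0.900, edgeR). Stag2, the one gene with an estimate below 0, averaged 203 ± 9.57 CPM over KO libraries and 212 ± 4.80 CPM over WT libraries, with a log2 change of -0.058 (SE 0.062). Rad21 and Smc1a had log2 changes of 0.038 (SE 0.067) and 0.022 (SE 0.074), and both changed sign with WT replicate 2 left out, Smc1a also without KO replicate 3. Smc3 and Nipbl had 0.092 (SE 0.065) and 0.10 (SE 0.063). The adjusted p of these 6 genes ran from 0.900 to 0.991 (edgeR).

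**Figure D2:**
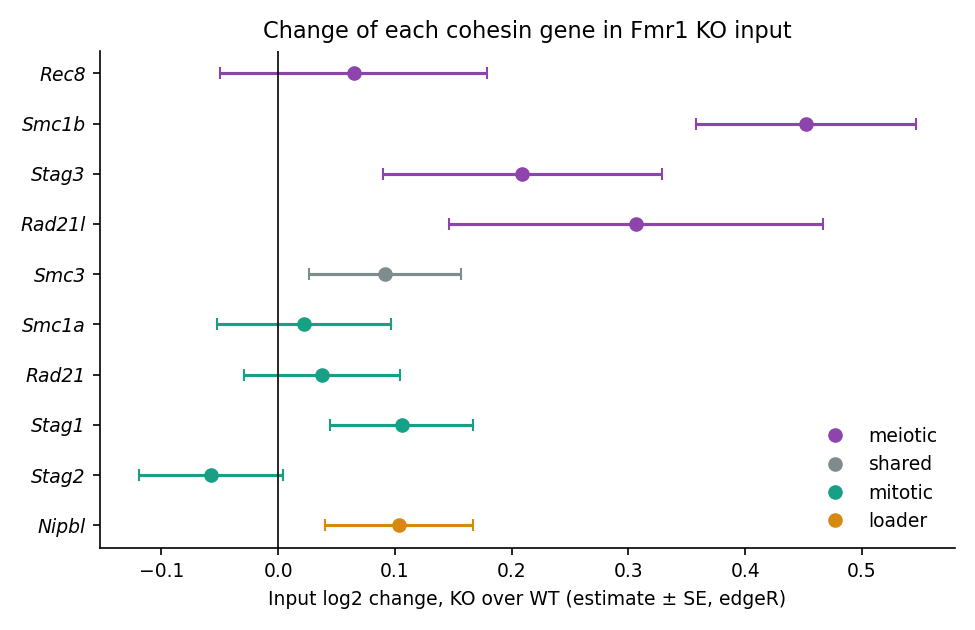
Input log2 change (KO over WT, horizontal axis) of each cohesin gene, 3 libraries a genotype, coloured by form. Bars are the SE, worked out from the edgeR estimate and test statistic. The estimates run from -0.058 for Stag2 to 0.45 for Smc1b, and 0 of the 10 passed the adjusted threshold.

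Meiotic and mitotic forms were then compared within each library, where library size cancels. The ratio of Smc1b to Smc1a was 2.90, 3.83 and 2.72 in KO and 2.06, 2.65 and 2.28 in WT. All KO ratios lay above all WT ratios, by a small margin between KO replicate 3 and WT replicate 2. The log2 ratio was 0.43 higher in KO (SE 0.19; two-sided exact permutation p = 0.1, the smallest that 3 against 3 libraries allow; adjusted p = 0.25 over 5 pairs).

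The ratio of Stag3 to Stag2 was 0.833, 0.989 and 0.819 in KO and 0.623, 0.777 and 0.807 in WT, so that Stag3 stayed below Stag2 in all 6 libraries. These groups did not overlap either (log2 difference 0.26, SE 0.145, exact permutation p = 0.1, adjusted p = 0.25). The margin between KO replicate 3 and WT replicate 3 was small. The level of Stag3 itself overlapped between the genotypes, and the Stag2 estimate was below 0. The ratio of Stag3 to Stag1 overlapped between genotypes, with a mean of 1.499 ± 0.28 over KO libraries and 1.39 ± 0.18 over WT libraries (SD of 3), and with Stag3 above Stag1 in every library (log2 difference 0.099, SE 0.19, exact permutation p = 0.7). The kleisin ratios overlapped too. Rec8 stood at 0.283 ± 0.0019 of Rad21 in KO and 0.280 ± 0.073 in WT (log2 difference 0.044, SE 0.21, exact permutation p = 0.7), and Rad21l at 0.209 ± 0.056 of Rad21 in KO and 0.173 ± 0.037 in WT (log2 difference 0.26, SE 0.27, exact permutation p = 0.5). In both kleisin ratios WT replicate 2 was the highest of the WT libraries, and the SE was larger than for the SMC1 ratio.

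**Figure D3:**
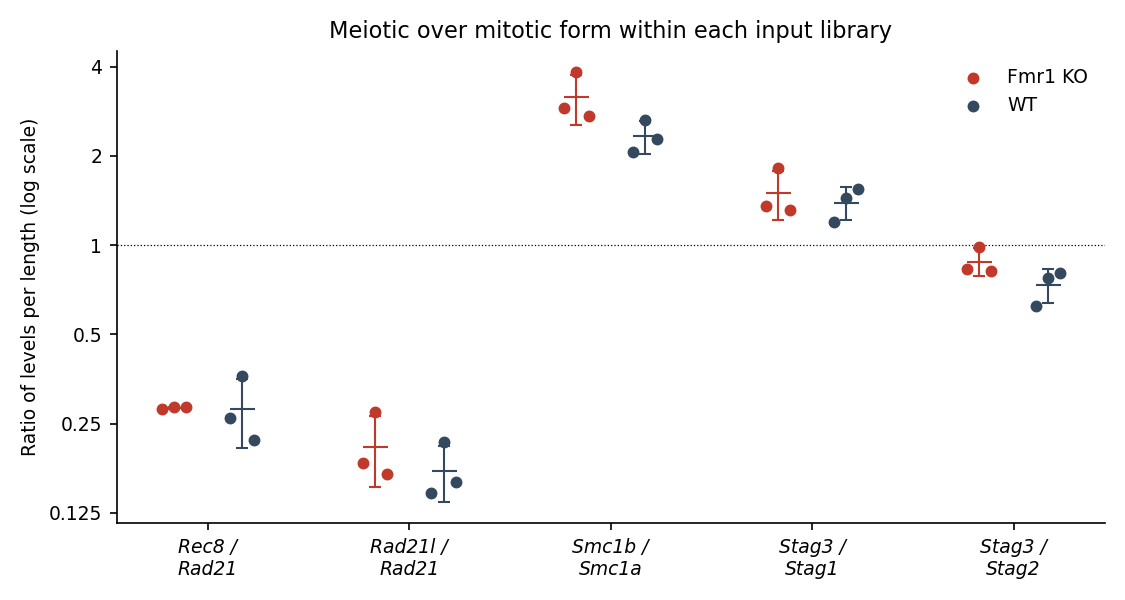
Ratio of the level per length of each meiotic form to its mitotic counterpart (log scale, vertical axis) in each Fmr1 KO and WT input library, with the mean and SD of 3 libraries. Smc1b lies above Smc1a at 2.06 to 3.83, the Stag3 ratios lie between 0.623 and 1.82, and the kleisin ratios lie between 0.146 and 0.361.

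The RIP table gives, for each of its rows, a fold enrichment in each RIP library, with no read depth behind it and no statement of what it is relative to. A gene can have several rows. Rows of the cohesin genes are numbered here by their mean, from the highest. Of the 10 genes, 5 had a row in the table and together had 27 of its 14447 rows: Nipbl 8, Smc1b 7, Smc1a 5, Rad21 4 and Smc3 3. All 27 passed the filter of a mean of at least 1, and none shared its values with another row.

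The 5 genes without a row were Rec8, Rad21l and all 3 STAG genes, so that Smc1b was the only meiotic form represented. Of tested input genes as a whole, 29.6% had a row. Among genes within 1.5-fold of the level and of the length of each, a row was present for 88.5% of genes like Stag2, 83.2% of those like Stag3, 80.7% of those like Stag1, 65.4% of those like Rec8 and 49.5% of those like Rad21l. This window was set after the data were seen. The genes without a row also had shorter exons, with median lengths of 102.5 to 116.5 bp, against 141 to 183 bp in the 5 genes with rows. Among other genes of 100 to 300 CPM and 4000 to 12000 bp, a row was present for 85.05% of the 107 with a median exon under 120 bp and for 87.8% of the 352 in the class from 140 bp that takes in the 5 genes with rows. Rec8 and Rad21l lie below these ranges of level and length, and the part of exon length in the missing rows was not tested.

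The RIP comparison asked which rows stood lower in KO, where Fmr1 is targeted. None of the 27 rows passed (limma, Benjamini-Hochberg adjusted p of 0.05), as was the case for 0 of all 14365 tested rows, or 0%. The KO mean was below the WT mean in 18 of the 27 rows, against 49.1% of all tested rows. At an unadjusted p under 0.05, 6 of the 27 were lower in KO and 0 higher, where 5.98% and 2.88% of all tested rows were. The groups did not overlap in 7 rows, all lower in KO, against 8.39% of all tested rows lower and 6.77% higher. The median log2 difference (KO minus WT) of the 27 was -0.12, against 0.0021 over all rows. Rows of 1 gene share their source and are not replicates.

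Smc1b had the highest ratio of any cohesin row and also 2 rows that separated the genotypes. Its row 1 stood at 5.52, 7.35 and 14.3 in KO and at 8.14, 6.87 and 10.6 in WT, at the 97.3rd percentile of all row means, with overlapping groups. Its row 6 stood at 1.80, 2.01 and 1.76 in KO and at 3.04, 2.72 and 3.00 in WT, with a tight spread in both groups (log2 difference -0.46, SE 0.11, adjusted p = 0.414, limma). Its row 7 stood at 1.45, 1.13 and 1.72 in KO and at 1.95, 3.23 and 2.83 in WT (log2 difference -0.58, SE 0.17, adjusted p = 0.456, limma). Neither of these passed, and the 5 other Smc1b rows overlapped between genotypes. The KO mean was below the WT mean in 5 of the 7 Smc1b rows. The input level of Smc1b averaged 239 ± 30.7 CPM over KO libraries and 175 ± 19.4 CPM over WT libraries. Whether the input level entered the ratio is not given, and its part in the ratios was not tested.

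Nipbl had the most rows and 3 without overlap. Its row 2 stood at 2.28, 2.22 and 2.49 in KO and at 3.78, 4.83 and 3.24 in WT (log2 difference -0.56, SE 0.17, adjusted p = 0.473, limma). Its row 5 stood at 1.47, 1.69 and 1.24 in KO and at 2.69, 1.92 and 2.73 in WT (log2 difference -0.48, SE 0.13, adjusted p = 0.433, limma). Its row 6 stood at 1.68, 1.61 and 1.20 in KO and at 2.06, 1.93 and 1.697 in WT, with a log2 difference of -0.22 (SE 0.105). For 7 of its 8 rows the KO mean was the lower one.

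Rad21 and Smc3 each had 1 such row. Row 2 of Rad21 stood at 3.43, 3.14 and 2.81 in KO and at 4.22, 4.74 and 5.17 in WT (log2 difference -0.47, SE 0.185, adjusted p = 0.528, limma), whereas its highest row, at 5.61 ± 0.91 in KO and 5.67 ± 2.07 in WT, overlapped. Row 3 of Smc3 stood at 0.936, 1.08 and 1.30 in KO and at 1.41, 2.37 and 1.56 in WT (log2 difference -0.39, SE 0.14, adjusted p = 0.490, limma), and its highest row stood at 4.93 ± 1.46 in KO and 4.37 ± 1.16 in WT.

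Smc1a had 0 of 5 rows with the KO mean below the WT mean. The KO over WT ratio of means ran from 1.00 to 1.32 over its rows, with overlapping groups throughout. Its row 4, for example, stood at 2.94, 1.95 and 2.55 in KO and at 1.67, 2.096 and 1.89 in WT (log2 difference 0.26, SE 0.14, adjusted p = 0.663, limma). The difference between Smc1a and Smc1b in this respect was not tested. Across the 7 rows without overlap, the ratio of KO to WT means ran from 0.537 to 0.789, and none passed in any of the 12 alternatives run for it. Each also kept its direction. Rows picked for lacking overlap can hardly change sign when 1 library is left out, so this adds no support.

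**Figure D4:**
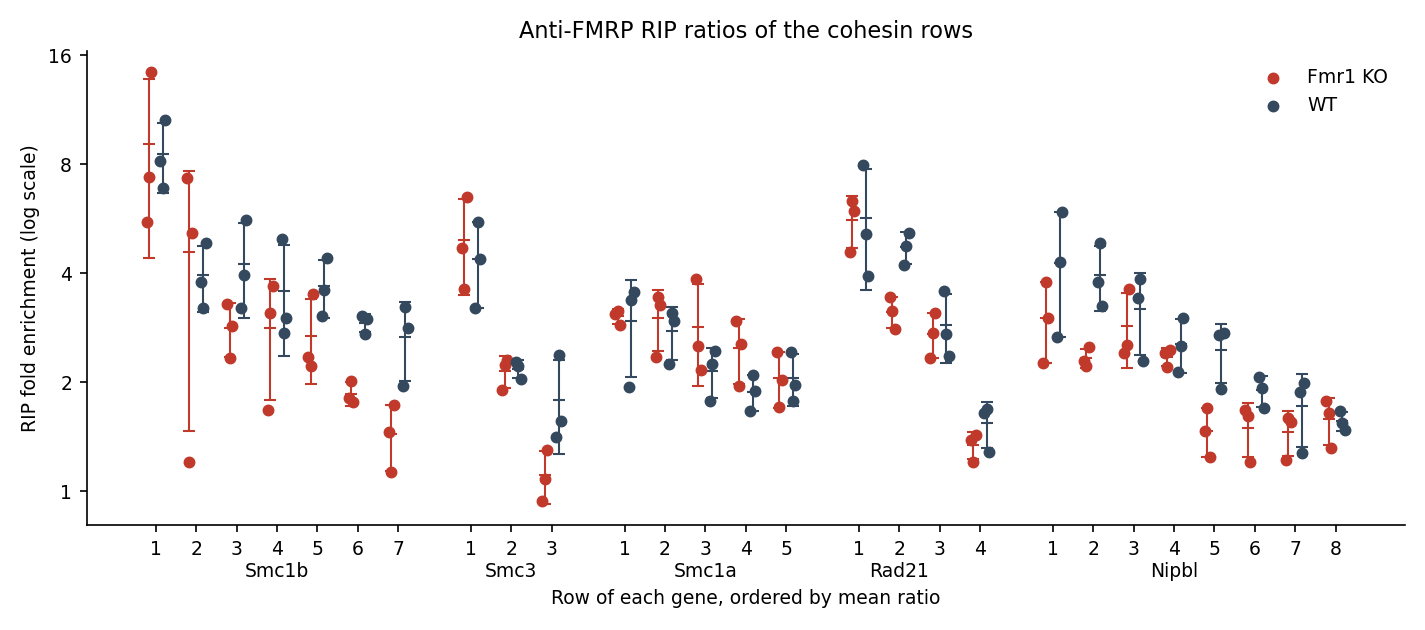
RIP fold enrichment (log scale, vertical axis) of the 27 rows of the 5 cohesin genes that had any, in each Fmr1 KO and WT RIP library, with the mean and SD of 3 libraries. Rows are ordered by mean within a gene, and KO lies wholly below WT in rows 6 and 7 of Smc1b, row 3 of Smc3, row 2 of Rad21 and rows 2, 5 and 6 of Nipbl.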

How the data were processed

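For input, the authors deposited raw read counts of each gene. Per the file headers, these were made with featureCounts 1.6.3 over exons with the Ensembl release 104 annotation and no option for strand, so reads of antisense genes cannot be told apart. The submitters' processing notes list BWA 0.7.12, MACS2 2.1.0, DESeq2 1.26.0 and GRCm38, with no roles. The gene positions given above follow the annotation behind the counts and do not match GRCm38 positions. The sources used here do not give the aligner behind the counts. The RIP values are the authors' fold enrichments, on a linear ratio scale.

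Input counts were tested with edgeR 4.0.16 (TMM, filterByExpr, robust quasi-likelihood test) and RIP ratios with limma 3.58.1 after log2(value + 1) and median centring of each library. Rows averaging under 1 were left out, and the added 1 shrinks changes of low ratios. Changes are KO over WT, and p-values were adjusted over all features. The edgeR test gives no SE. The SE of an input log2 change is its absolute value over the square root of the test statistic F. Both steps were tried on simulated data. The simulated counts had the same spread for every gene, and every change put into them was larger than that of Smc1b. The trial on counts thus did not cover changes as small as those of the cohesin genes. The simulated RIP changes were all higher in KO, so that trial did not cover rows lower in KO. Alternatives included DESeq2 1.42.0 and limma-voom. Replicate pairs of a group differed by more than sampling noise (chi-square per gene of 8.12 to 14.2). All 10 cohesin genes are named, with Fmr1. These genes, lists and comparisons were chosen with earlier results of these data known. The names of the 10 came with their identifiers, and Fmr1 was taken as ENSMUSG00000000838. No table used here pairs Ensembl identifiers with symbols, so lists of cohesin regulators, related complexes and cell type markers were not analysed here, and the tissue label could not be checked beyond the meiotic forms.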

Additional observations from a re-analysis of the deposited data

How the results depend on the processing

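Smc1b was the 1 cohesin gene past the adjusted threshold with DESeq2, with no low-count filter and with the replicate block, where the count of 0 became 1 each time. It was 0 with limma-voom, with RLE normalization and with each library left out. The count over all tested genes, 10, was 37 with DESeq2, 113 with no low-count filter and 20 with the replicate block, and ran from 5 to 37 with 1 library left out; the cause was not tested. Pairing by replicate number was not borne out (correlations of same-numbered deviations from -0.11 to -0.051 in input and from -0.60 to -0.22 in RIP). With 1 library left out, the log2 change ran from -0.041 to 0.23 for Rec8, from -0.029 to 0.088 for Smc1a and from -0.0066 to 0.088 for Rad21, so these 3 estimates have no settled sign. The log2 difference of the SMC1 ratio ran from 0.28 to 0.52, that of Stag3 over Stag2 from 0.15 to 0.33, that of Stag3 over Stag1 from -0.050 to 0.18, that of Rad21l from 0.045 to 0.42 and that of Rec8 from -0.12 to 0.24. The replicate block left the 5 pair differences as they were, as it must with balanced replicates. The exact sign-flip p ran from 0.25, the smallest that 3 replicate numbers allow, to 0.75. The count of RIP rows over the table, 0, was 1 with no filter on low values, the row of Fmr1, and 0 with the replicate block and the other settings. Of the 20 cohesin rows with overlapping groups, 12 changed sign under at least 1 alternative, and the lowest adjusted p of any of the 27 rows was 0.410 (limma). Unmeasured depth limits what the RIP ratios can show.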
